A study of Mus musculus with 6 samples.

Results

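Beta-catenin (Ctnnb1) and 9 genes that are commonly used as its transcriptional targets were examined in mouse granulosa cells, the somatic cells that surround the oocyte. The 10 genes, Ctnnb1, Axin2, Lef1, Tcf7, Nkd1, Ccnd1, Myc, Bambi, Lgr5 and Rnf43, were taken by name, and each had exactly 1 row among the 30832 rows of the deposited value table and 1 among the 30840 labelled rows of the non-normalized intensities. The study compared cells of Fzd1 KO mice, which lack the WNT receptor Frizzled 1, with cells of Fzd1 WT mice, 3 samples per genotype. All 6 samples came from female C57BL/6J mice labelled as 26 days old (23 to 26 days in the growth protocol), which had received 5 IU of eCG, a gonadotropin that makes follicles grow, for 48 h and then 5 IU of hCG, which replaces the ovulatory surge of luteinizing hormone, for 12 h. The labels say neither which part of Fzd1 is missing, nor whether it is missing in all cells, nor how many animals gave 1 sample, so a p-value here covers only the spread among these samples, and that spread may be technical.

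Beta-catenin links cadherins to the actin cytoskeleton at cell junctions and also carries the canonical WNT signal. Without WNT, a complex built on Axin and APC lets the kinases CK1 and GSK3 mark it for degradation. When WNT occupies a Frizzled receptor, beta-catenin accumulates, enters the nucleus and activates genes bound by TCF and LEF factors, several of which (Axin2, Nkd1, Rnf43) encode inhibitors that feed back on the pathway. In rodent granulosa cells beta-catenin is known to enhance the FSH-driven expression of aromatase.

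The values came in 2 tables that differ in what can be read from them. The value table has a column for each labelled sample but its row labels did not follow the levels, whereas in the non-normalized table the labels followed the levels but its 6 arrays carry names that match no sample. Ribosomal protein genes, which are among the most abundant transcripts of animal cells, served as the check. Of the 67 rows with their labels in the non-normalized table, 51 (76.1%) were among the brightest 10% of rows, and their median was 10.69 on the log2 scale, against 6.73 for all rows. Of the 67 such rows in the value table, 10 (14.9%) were among the brightest 10%, and their median level of 7.64 was that of all rows. Across the 30817 labels found in both tables the mean levels were unrelated, with a Spearman rho of -0.0089 over labels, which are not independent replicates. A level is therefore credited to a gene only in the non-normalized table, where no genotype is known, and the genotypes are compared only between rows that are called by their label.

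**Figure D1:**
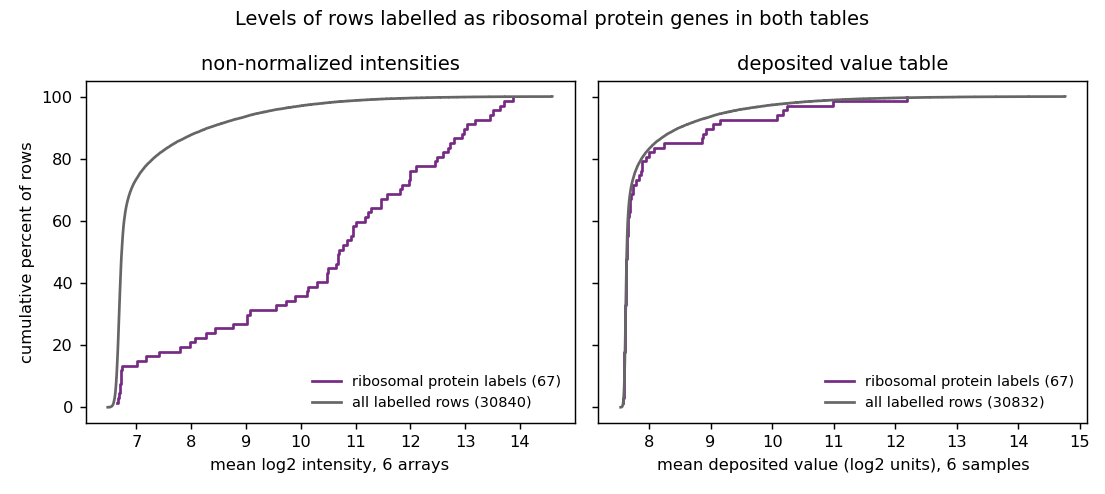
Cumulative percent of rows (vertical axis) up to a given mean level in log2 units (horizontal axis), for rows labelled as ribosomal proteins and for all labelled rows, in the non-normalized intensities (left) and in the deposited value table (right). The ribosomal rows lie far to the right of all rows in the left panel, with medians of 10.69 and 6.73, and follow all rows in the right panel, where both medians are 7.64.

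On the non-normalized arrays the median intensity of all rows was between 104.7 and 112.9, and between 30.7% and 33.6% of rows had a detection p under 0.05, the limit used here for a level above background. Arrays are numbered 1 to 6 in the order of the table, which stands for no group. Granulosa markers were present. Of the 10 with a row, 9 were above background on at least 3 arrays, among them Inha, an inhibin subunit, at 8835 to 12626, and Gja1, the main gap junction protein of these cells, at 6939 to 10105. Transcripts of oocytes and red cells were present too. The counts of every marker list stand beside the 31.7% of all labelled rows that were above background on at least 3 arrays. Of 9 oocyte markers 7 were above background on at least 3 arrays, with a summed intensity of 10449 to 18660 and Gdf9, an oocyte growth factor, at 5954 to 9544. Of 4 red cell markers 3 passed, with a sum of 30338 to 37803 in which the alpha-globin gene Hba-a1 alone had 21989 to 27102. Of 8 leukocyte markers 4 passed, with a sum of 986 to 1067 and Ptprc, the pan-leukocyte marker, at background on all 6 arrays. Cdh5 was the only one of 5 endothelial markers to pass (sum 546 to 605). Of the theca markers 2 of 5 passed (565 to 681), of the surface epithelium 4 of 6 (710 to 845) and of smooth muscle 3 of 5 (962 to 1249). Of the markers of luteinizing granulosa cells 6 of 7 passed (2066 to 2970) and of the ovulatory and cumulus genes 3 of 7 (1331 to 1695). The endothelial, theca and ovulatory counts lay near the share of all rows and are no result about those lists. The sums include rows at background, where a median row had 104.7 to 112.9, so they also follow the number of rows in a list. The part of other cells in the levels below was not tested, and in RNA from a mixed sample fewer cells and less RNA per cell cannot be told apart. The targeted gene gave no check of genotype, since Fzd1 lay between 96.4 and 108.2 and was above background on 0 of the 6 arrays, with detection p-values of 0.224 to 0.879.

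Of the 10 genes, 6 were above background on at least 3 of the 6 arrays, where 31.7% of all labelled rows were. Ctnnb1 and Axin2 passed on all 6 arrays, as 21.9% of all rows did, a count near that share and no result about the 10 genes. Nkd1 passed on 5, Ccnd1, Tcf7 and Lgr5 on 3 each, and Myc on 1. Lef1, Bambi and Rnf43 passed on none, as did 50.8% of all rows. At the stricter limit of a detection p under 0.01 on at least 3 arrays, 4 genes remained, Ctnnb1, Axin2, Nkd1 and Ccnd1, and 25.3% of all rows passed.

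Ctnnb1 had a detection p under 0.05 on all 6 arrays and under 0.01 on 4 of them. Its intensity was 424, 392, 379, 390.3, 448 and 456 on arrays 1 to 6, which is 3.61 to 4.20 times the median row of the same array. The highest value was 1.20 times the lowest, a narrower spread than the median of 1.29 times over the 6759 rows that passed on all 6 arrays. Its detection p ran from 1.88e-06 to 0.0384. The detection p of 22808 rows (74.0%) was a whole multiple of 1 in 936 on all 6 arrays, to within 0.01 of a step, as it was for Axin2, Bambi, Lgr5 and Rnf43. It was not for the other 6 genes, and the sources used here do not say how the p-values of such rows were made. Axin2 had a detection p of 0 on each array, which is a multiple of any step, so its kind cannot be told. The 22808 rows include every row with 0 on all 6 arrays. Among the 6 genes off the steps the detection p did not follow the intensity alone. On array 2 it was 0.0384 for Ctnnb1 at 392 and 0.00396 for Ccnd1 at 119.8. The counts of genes above background and the shares of all rows beside them mix both kinds of p-value. No share was computed among rows of the same kind. Several probe IDs are listed for 3223 rows, 3 for Lef1 and 1 for each of the other 9 genes.

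Among the feedback inhibitors, Axin2, the Axin family scaffold that is induced by the pathway it restrains, was the one above background on all arrays. Its intensity was 235, 225, 206, 251, 289 and 263 on arrays 1 to 6, with a detection p of 0 on each. It was highest on array 5 and lowest on array 3, by a factor of 1.40. Nkd1, which binds Dishevelled and dampens the signal, had 154, 128, 171, 205, 156 and 164. Array 4 was the highest and array 2 the lowest, 1.61 times apart, the widest spread of the 10 genes. Its detection p was under 0.05 on arrays 1 to 5 and 0.160 on array 6. Rnf43, a ubiquitin ligase that removes Frizzled receptors from the cell surface, lay at 102.6 to 114.4 with detection p-values of 0.0662 to 0.495. Bambi, a decoy receptor for TGF-beta family ligands that is also a target of beta-catenin, lay at 92.5 to 111.2 with detection p-values of 0.244 to 0.949. Neither was above background on any array, so these rows give no level for either gene.

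The TCF and LEF factors are both partners of beta-catenin and, for Tcf7 and Lef1, its targets. Tcf7 had 111.2, 113.1, 113.4, 104.4, 100.9 and 132.2 on arrays 1 to 6, and passed on arrays 2, 3 and 6, with the lowest detection p, 6.91e-05, on array 6. The remaining arrays were at background. Lef1 lay between 98.9 and 107.9, with detection p-values of 0.191 to 0.85, so no array measured it.

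The growth-related targets were close to background. Ccnd1, which encodes cyclin D1, an activator of the kinases that start the cell cycle, had 124.0, 119.8, 111.7, 107.4, 111.0 and 122.7. It passed on arrays 1, 2 and 6, and on the other 3 arrays its detection p was between 0.0628 and 0.0771. Myc, a transcription factor that drives growth and proliferation, had 150.0, 131.3, 121.0, 127.0, 117.8 and 148.5, and passed on array 6 alone, where its detection p was 0.0104. Lgr5, the R-spondin receptor known as a stem cell marker, had 110.9, 109.5, 113.1, 117.2, 117.0 and 103.2 and passed on arrays 3, 4 and 5, with detection p-values of 0.0331, 0.0160 and 0.0192. The highest of these values was 1.36 times the median row of its array.

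**Figure D2:**
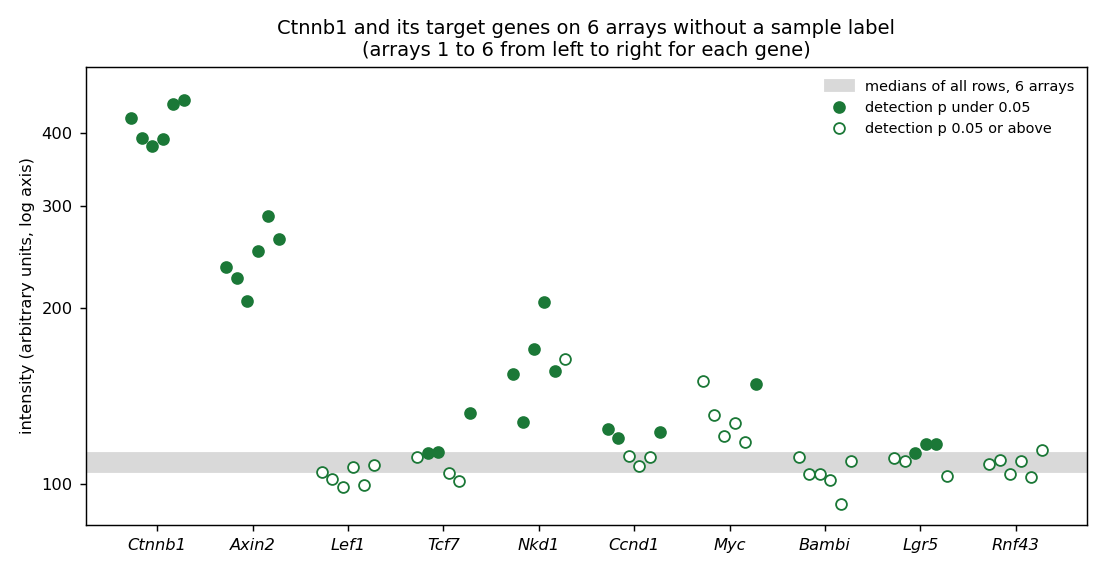
Intensity (vertical axis, arbitrary units, log scale) of Ctnnb1 and 9 target genes on the 6 arrays without a sample label, arrays 1 to 6 from left to right within each gene. Filled points have a detection p under 0.05, and the grey band spans the medians of all rows on the 6 arrays. Ctnnb1 at 379 to 456 and Axin2 at 206 to 289 are filled throughout, whereas Lef1, Bambi and Rnf43 have open points only.

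The rest of the pathway was examined with 4 lists, whose counts stand beside the 31.7% of all labelled rows that were above background on at least 3 arrays, the 21.9% on all 6 and the 50.8% on none. Of the 14 genes of the destruction complex and its regulators with a row, 7 were above background on at least 3 arrays. Csnk1e, a kinase of the CK1 family, lay at 885 to 1142, and Axin1, the constitutive scaffold of the complex, at 399 to 491. Gsk3b, the kinase that phosphorylates beta-catenin, lay at 168 to 223, and Ctnnbip1, which keeps beta-catenin from TCF factors, at 284 to 323, each above background on all 6 arrays. Apc passed on 2 arrays and Csnk1a1 on 1. Of 15 nuclear partners 11 passed on at least 3 arrays, among them Pygo2, a coactivator bound through BCL9 proteins, at 373 to 577, and Chd8, a chromatin remodeller that restrains beta-catenin, at 388 to 548. Of the Groucho family corepressors, Tle2 lay at 187 to 299. Tcf7l2, another TCF factor, passed on 1 array (118.1 to 137.4).

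Of 7 junction partners 2 passed on all 6 arrays, where 21.9% of all rows did, Ctnna1, the alpha-catenin that ties beta-catenin to actin, at 2534 to 3358, and Cdh5, the endothelial cadherin, at 109.0 to 149.7. The cadherins Cdh1 and Cdh2 and the catenin gene Jup were at background on all 6 arrays. Of 23 other common targets 7 passed on at least 3 arrays, where 31.7% of all rows did, and 9 on none, as did 50.8% of all rows. The counts of the junction partners and of the other targets lay near these shares and are no result about either list. Fst, which encodes the activin-binding protein follistatin and is also a granulosa marker, lay at 1018 to 1845, Birc5, an inhibitor of apoptosis needed for mitosis, at 565 to 816, Apcdd1, a membrane inhibitor of WNT, at 176 to 267, and Ccnd2, the cyclin D2 gene of granulosa proliferation, at 209 to 359. Vegfa lay at 403 to 629 but had a detection p under 0.05 on 2 arrays only. Znrf3, the partner of Rnf43, and Dkk1, a secreted WNT inhibitor, were at background on all 6 arrays, and Sp5, Notum and Nkd2 passed on 1 array each.

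**Figure D3:**
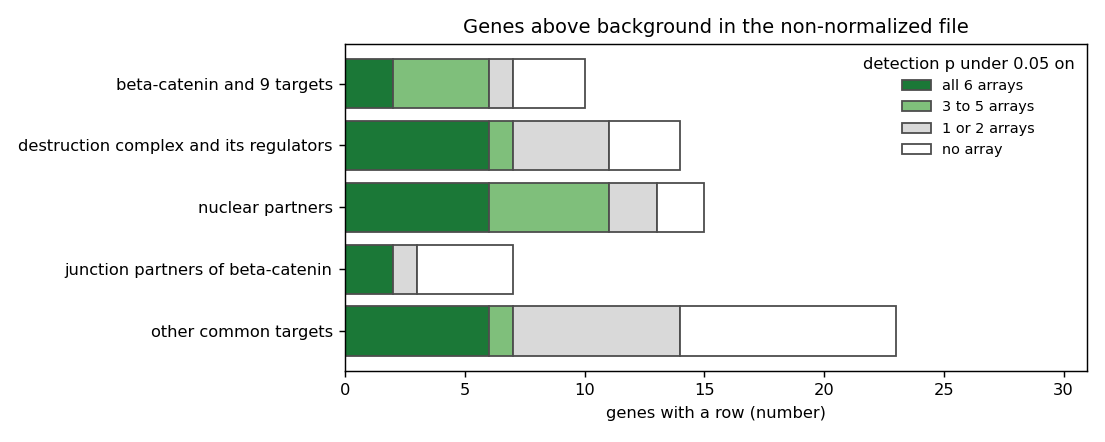
Number of genes with a row (horizontal axis) in the set of beta-catenin with 9 targets and in 4 other lists of the pathway, split by the number of arrays on which the detection p was under 0.05. For the 10 genes the bar shows 2 on all 6 arrays, 4 on 3 to 5 arrays, 1 on 1 or 2 arrays and 3 on none.

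The rows whose pattern over the 6 arrays was most like that of Ctnnb1 were sought among 4901 rows with a gene name that passed on all 6 arrays, by Pearson's r of quantile-normalized log2 intensities. The 5 highest were Chrd (r = 0.993), Dhx37 (0.986), Cisd1 (0.984), Pla2g15 (0.980) and Ppif (0.972). Chrd, for example, had 186, 164, 153, 168, 208 and 214 on arrays 1 to 6. With 6 arrays many rows reach a high r, and 52 rows had one above 0.9, so the ranking is a description of these arrays. Without normalization between arrays 2 of these 5, Chrd and Dhx37, were among the highest 5. Of the other genes that passed on most arrays, Axin2 had an r of 0.78 and Nkd1 of -0.18 with Ctnnb1. Like Ctnnb1, Axin2 was lowest on array 3 and higher on arrays 5 and 6 than on the first 3.

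KO and WT could be compared only in the value table, where a row carries a gene's label but not its level. Ctnnb1, for instance, stood at percentile 92.1 of the rows by level in the non-normalized table and its label at 38.0 in the value table, whereas Myc stood at 74.7 in the non-normalized table and its label at 98.0 in the value table. Differences between genotypes are given in log2 units of that table and belong to rows, not to genes. In limma with Benjamini-Hochberg adjustment over all 30832 rows, 0 rows were called (0% of those tested), and 1485 (4.82%) had an unadjusted p under 0.05. Of the 10 labelled rows 0 were called, with adjusted p-values from 0.975 to 0.992 in limma, and 1 had an unadjusted p under 0.05.

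The row labelled Ctnnb1 had 7.63, 7.64 and 7.62 in KO samples and 7.67, 7.55 and 7.64 in WT samples, a difference of 0.0086 (SE 0.032, 95% interval -0.069 to 0.086). Its KO values lay inside the range of its WT values. The row labelled Axin2 had 7.73, 7.72 and 7.72 in KO samples and 7.77, 7.71 and 7.72 in WT samples, a difference of -0.0065 (SE 0.020). These groups overlapped as well. The row labelled Myc had 10.44, 10.28 and 10.41 in KO samples and 10.29, 10.28 and 10.48 in WT samples, a difference of 0.024 (SE 0.067, 95% interval -0.14 to 0.19), again with overlap. The row labelled Ccnd1 had 8.22, 8.10 and 7.98 in KO samples and 7.99, 8.10 and 8.11 in WT samples, a difference of 0.034 (SE 0.066), and its SD was 0.12 in KO samples and 0.066 in WT samples (n = 3 each).

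In 3 of the 10 rows the KO and WT values did not overlap, as in 10.2% of all rows. The row labelled Lgr5 had 7.74, 7.75 and 7.73 in KO samples and 7.70, 7.70 and 7.67 in WT samples, a difference of 0.048 (SE 0.017, 95% interval 0.0071 to 0.088). Its unadjusted p in limma was 0.028, and 0.056 with a replicate block, 0.063 with limma-trend and robust eBayes and 0.18 among the brightest 30% of rows. It was 0.028 with array weights, 0.027 with median centring, 0.039 with quantile normalization and 0.038 among the brightest 60% of rows. The row labelled Lef1 had 7.72, 7.72 and 7.77 in KO samples and 7.65, 7.70 and 7.70 in WT samples, a difference of 0.056 (SE 0.024). Its unadjusted p in limma was 0.057. Over the other fits with all samples it ran from 0.045, with limma-trend and robust eBayes, to 0.17, among the brightest 30% of rows. The row labelled Tcf7 was lower in each KO sample, with 7.63, 7.60 and 7.59 in KO samples and 7.66, 7.65 and 7.65 in WT samples, a difference of -0.041 (SE 0.018). Its unadjusted p in limma was 0.066. Over the other fits with all samples that held this row it ran from 0.063, with limma-trend and robust eBayes, to 0.089, with a replicate block. The adjusted p was 0.975 in limma for each of these 3 rows, and the exact permutation p was 0.1, two-sided, the smallest that 3 samples against 3 allow. By level in the value table the rows labelled Lgr5, Lef1 and Tcf7 stood at percentiles 71.6, 70.9 and 42.4. The 8 rows other than those labelled Myc and Ccnd1 had means of 7.61 to 7.73, beside array medians of 7.64 to 7.65 over all rows.

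The rows labelled Nkd1, Bambi and Rnf43 differed by 0.016 (SE 0.021), -0.028 (SE 0.020) and -0.012 (SE 0.028), each with overlapping groups. Over the 10 rows 6 differences were positive and 4 negative, with a median of 0.012, beside 5.4e-05 over all rows. With 1 sample left out 5 of the 10 rows, those labelled Ctnnb1, Axin2, Ccnd1, Myc and Rnf43, changed sign at least once. The 95% intervals of the 10 rows reached at most 0.20 from 0. Of the rows labelled with the 4 pathway lists 0 were called in either direction, among 14 of the destruction complex, 15 of the nuclear partners, 7 of the junction partners and 23 of the other targets, and the median differences were -0.0069, 0.00034, -0.0014 and 0.0092. Whether any of these genes differs between Fzd1 KO and WT granulosa cells was not tested by these rows, because their labels did not follow the levels.

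**Figure D4:**
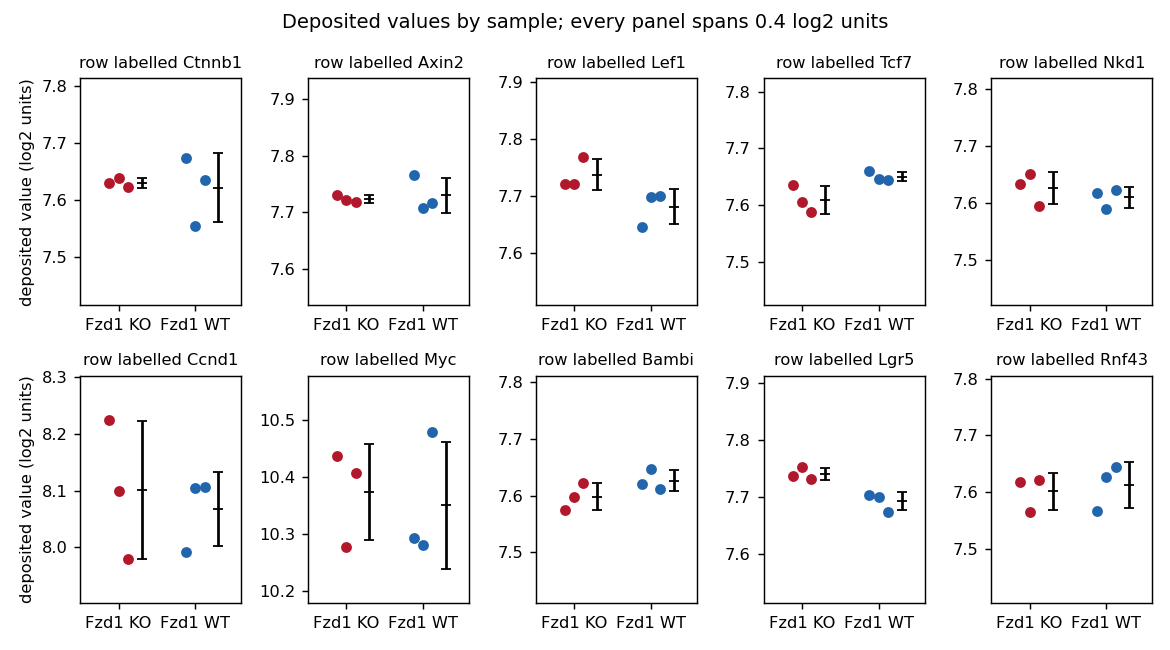
Deposited values (vertical axis, log2 units) of the 10 rows labelled Ctnnb1 and 9 target genes in the 3 Fzd1 KO samples (left in each panel) and the 3 Fzd1 WT samples (right), with mean and SD as bars; every panel spans 0.4 log2 units. The groups do not overlap in the rows labelled Lef1, Tcf7 and Lgr5, which differ by 0.056, -0.041 and 0.048, and overlap in the other 7.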

How the data were processed

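RNA was hybridised to 1-colour arrays, and 2 tables were analysed. The deposited value table was taken as log2 levels, normalized between arrays by the authors; the scale is inferred from its values, and no row centring was visible. The deposited non-normalized intensities and detection p-values, per the file headers, are linear scanner values of 6 arrays. No source used here states the background correction or the probe summary. These 12 columns match no sample label, so they describe levels only. The 14 rows without a label were left out. List genes were matched by exact label.

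KO minus WT was fitted with limma 3.58.1 (R 4.3.3, lmFit and eBayes) over all 30832 rows and 6 samples, without covariates, with a threshold of 0.05 on the adjusted p. Keeping all rows gave every labelled row a test. Above background means a detection p under 0.05 on at least 3 arrays. Likeness to Ctnnb1 used quantile-normalized log2 intensities. The planned test between genotypes on the non-normalized table was not run. The fit was tested on simulated data. Named were the 10 genes, the 5 rows most like Ctnnb1, and examples of each pathway list, among the brightest; Gsk3b, Apc, Csnk1a1, Tle2, Tcf7l2, Cdh2, Jup, Apcdd1, Znrf3, Dkk1, Sp5, Notum and Nkd2 were added after their values were seen. Members and lists were chosen with earlier results of these data known. The number of arrays limits the precision. Python 3.11.15 and matplotlib 3.10.9 drew the figures.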

Additional observations from a re-analysis of the deposited data

How the results depend on the processing

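The KO against WT result held under all 13 other fits: 0 rows called, and 0 also at an adjusted p of 0.1, in limma, with smallest adjusted p-values of 0.155 to 0.998 and 1166 to 1894 rows at an unadjusted p under 0.05 where all 30832 rows were fitted, 913 among the brightest 60% and 465 among the brightest 30%. With a replicate block, 0 of all rows and 0 of the 10 labelled rows were called, and 1203 rows had an unadjusted p under 0.05. Same-numbered KO and WT samples deviated together at r = -0.18, -0.035 and -0.29, so no pairing was seen. The 10 labelled rows kept their sign in all 61 values recomputed with all samples. Only array weights, quantile normalization and median centring could change a difference. Keeping the brightest rows, limma-trend and the replicate block leave it as it was, so their values do not test the sign. Of the 10 rows 6 were among the brightest 60% of rows and 5 among the brightest 30%. With 1 sample left out, 9 of 60 values changed sign, none called (smallest adjusted p = 0.798 in limma). The ranges were -0.025 to 0.035 for Ctnnb1, -0.018 to 0.011 for Axin2, -0.028 to 0.094 for Ccnd1, -0.011 to 0.088 for Myc and -0.035 to 0.0067 for Rnf43, and without a change of sign 0.038 to 0.065 for Lef1, -0.054 to -0.030 for Tcf7, 0.0040 to 0.032 for Nkd1, -0.040 to -0.016 for Bambi and 0.038 to 0.053 for Lgr5. Without normalization between arrays 2 of the 5 rows most like Ctnnb1 remained. Requiring all 6 arrays left 2 of the 10 genes above background, near the 21.9% of all rows that passed, so this count is no result about the 10 genes. Ribosomal labels in the brightest 25% of rows were 85.1% in the non-normalized table and 28.4% in the value table, and with exact labels only 79.0% and 16.1% were in the brightest 10%. Each label has 1 row, so taking the highest row per label changes nothing. Signal close to background limits what can be said of 7 of the 10 genes.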
